A study of Caenorhabditis elegans with 2 samples.

Results

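The large subunit of the cytosolic ribosome of Caenorhabditis elegans is built from ribosomal RNA and proteins whose genes carry symbols starting rpl- or rla-. All protein-coding genes with such a symbol in the Ensembl annotation of assembly WBcel235 were taken, which gave 50 of the 19973 protein-coding genes considered. No measured value entered this choice. Chromatin immunoprecipitation with sequencing was labelled as directed at FKH-10, a forkhead (winged helix) transcription factor, in whole larvae of the third stage (L3). The labels give strain OP337, genotype unc119(ed3) with the integrated transgene wgIs377 (fkh-10::TY1 EGFP FLAG with unc119), pooled animals of both sexes and unknown age. Both libraries, biological replicates 1 and 2, came from this strain, and no second genotype, treatment or untagged strain was analysed here. A signal from whole animals is a sum over all of their cells, and which cells contributed it cannot be told apart.

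The authors' files list regions where the precipitated fragments pile up, each with a summit (its highest position) and a signal value. The pooled list holds 30000 regions of both replicates together, and each replicate has a list of its own of the same length. The thresholded list holds 2005 peaks, from combining these lists by how well ranks repeat between them. At each large subunit gene with a thresholded summit, the peak had the same rank by signal in the pooled and the thresholded list. These ranks ran from 1 at rpl-3 to 1878 at rpl-30. A thresholded peak was thus not shown to repeat by itself in each replicate. A control alignment entered the calls and was not analysed here.

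RefSeq described the product of 48 of the 50 genes as a ribosomal protein. The exceptions were rpl-24.2, described as the putative ribosome biogenesis protein RLP24, and rpl-42, described as a NAM-associated domain-containing protein. RefSeq also gave large subunit names to Y37E3.8 (uL15) and W01D2.1 (L37), which lie outside the rule. Neither had a thresholded summit within 1 kb, and their strongest pooled signals were 12.6 and 24.9. At the tagged gene, fkh-10, 0 regions lay within 20 kb of the 5' end in any of the 4 lists, so the lists held nothing at that gene by which the strain could be checked. The number of reads per library is unknown, and the signal value is the one given by the authors' peak caller, with a scaling that is not stated.

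Ribosomal protein genes are among the most highly transcribed genes of growing animals, and most of their products are needed in equal numbers. Forkhead proteins are known to bind a core of the form GTAAACA with variants at its first and sixth bases. Many worm transcripts are trans-spliced to a short leader, so the annotated 5' end of a gene can be the splice site rather than the place where transcription starts. The large subunit holds the peptidyl transferase centre, a tunnel for the growing chain, a particle with 5S ribosomal RNA, and a stalk of acidic proteins that recruits translation factors, as known from ribosomes of yeast and mammals.

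The windows below are the 11 strongest thresholded summits of these genes on chromosomes II to X, from 50 bp before to 50 bp after the summit, on ce11, read 5′ to 3′ on the strand of the gene from the WBcel235 genome sequence of RefSeq. They were picked by signal and chromosome, not by sequence. A 6-mer, ACCGTA or its reverse complement TACGGT, recurred at the summits of the large subunit genes, and capitals mark it. It was present in 7 of the 11.
rpl-3 (chrIII:3867531-3867631, plus strand): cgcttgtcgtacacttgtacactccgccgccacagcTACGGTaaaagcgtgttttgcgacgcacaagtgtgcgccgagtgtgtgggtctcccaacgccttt
rpl-20 (chrIV:4750013-4750113, minus strand): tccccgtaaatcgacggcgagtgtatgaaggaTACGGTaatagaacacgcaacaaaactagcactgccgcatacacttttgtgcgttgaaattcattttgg
rpl-15 (chrIV:654883-654983, minus strand): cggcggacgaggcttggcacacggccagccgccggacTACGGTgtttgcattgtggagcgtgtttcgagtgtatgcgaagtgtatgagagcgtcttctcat
rpl-35 (chrIII:7854630-7854730, plus strand): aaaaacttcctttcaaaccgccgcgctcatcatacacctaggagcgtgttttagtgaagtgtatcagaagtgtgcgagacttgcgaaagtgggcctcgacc
rpl-12 (chrIV:13240627-13240727, minus strand): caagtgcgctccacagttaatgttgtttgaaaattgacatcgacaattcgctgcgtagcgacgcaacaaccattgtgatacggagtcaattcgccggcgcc
rpl-11.2 (chrX:2242908-2243008, minus strand): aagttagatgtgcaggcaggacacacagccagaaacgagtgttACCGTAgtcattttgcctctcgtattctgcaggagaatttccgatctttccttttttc
rpl-5 (chrII:8569467-8569567, plus strand): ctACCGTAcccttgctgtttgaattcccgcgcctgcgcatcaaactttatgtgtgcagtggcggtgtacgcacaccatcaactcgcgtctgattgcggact
rpl-23 (chrIII:5706382-5706482, minus strand): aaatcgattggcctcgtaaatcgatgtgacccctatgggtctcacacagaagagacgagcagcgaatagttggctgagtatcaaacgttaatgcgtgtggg
rpl-43 (chrII:14154481-14154581, plus strand): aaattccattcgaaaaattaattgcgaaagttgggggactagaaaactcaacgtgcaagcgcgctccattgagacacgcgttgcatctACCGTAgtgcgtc
rpl-38 (chrV:15511763-15511863, plus strand): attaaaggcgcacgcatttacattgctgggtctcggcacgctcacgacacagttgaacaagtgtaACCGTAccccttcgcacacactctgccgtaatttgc
rpl-36 (chrIII:7179795-7179895, plus strand): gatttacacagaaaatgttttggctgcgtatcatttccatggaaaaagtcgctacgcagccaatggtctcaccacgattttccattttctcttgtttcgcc

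Most large subunit genes had a thresholded peak near their start. A summit of the thresholded list lay within 1 kb of the 5' end of 31 of the 50 genes (62.0%), against 5.48% of all protein-coding genes counted the same way. Since rpl-41.1 and rpl-41.2 shared 1 summit, the 31 genes had 30 distinct summits, and no gene had more than 1. In the pooled list of 30000 regions, which holds many weak ones, 47 of the 50 genes (94.0%) had a summit within 1 kb, against 49.5% of all protein-coding genes. The strongest pooled signal within 1 kb had a median of 34.2 over the 47 genes and of 10.8 over the 9882 genes of the genome with such a region. The genes and earlier results of these data were known when the list was chosen, so these shares are a description and no test was made.

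The count depended on how a summit between gene starts was assigned. When each summit was given to the nearest protein-coding gene start alone, 18 of the 50 genes kept a summit, against 4.08% of all protein-coding genes. The other 13 shared their summit with a gene whose start was closer. The 1002 strongest thresholded peaks left 17 of the 50 genes, against 2.72% of all genes.

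Both replicates had regions at most of these genes, with different ranks. Among the 2005 strongest regions of a replicate's own list, as many as the thresholded list holds, a summit lay within 1 kb of 32 of the 50 genes in replicate 1, against 5.47% of all protein-coding genes. In replicate 2 it was 23 of the 50 genes, against 5.07% of all. Both replicates had one at 21 of the 50 genes (42%), against 3.23% of all protein-coding genes. With all regions of each replicate counted, 46 of the 50 genes had a region within 1 kb in replicate 1, against 48.7% of all protein-coding genes, and 43 had one in replicate 2, against 48.0% of all. Both lists had one at 41 of the 50 genes, against 28.6% of all protein-coding genes. Of the 31 genes with a thresholded summit, all had a region within 1 kb in each replicate, not always at the same place. The like share over all 1095 genes with a thresholded summit is not given here, so this count is not read further. Spearman's rho between the ranks of the 31 genes was 0.568, a description across genes that share the same libraries.

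**Figure D1:**
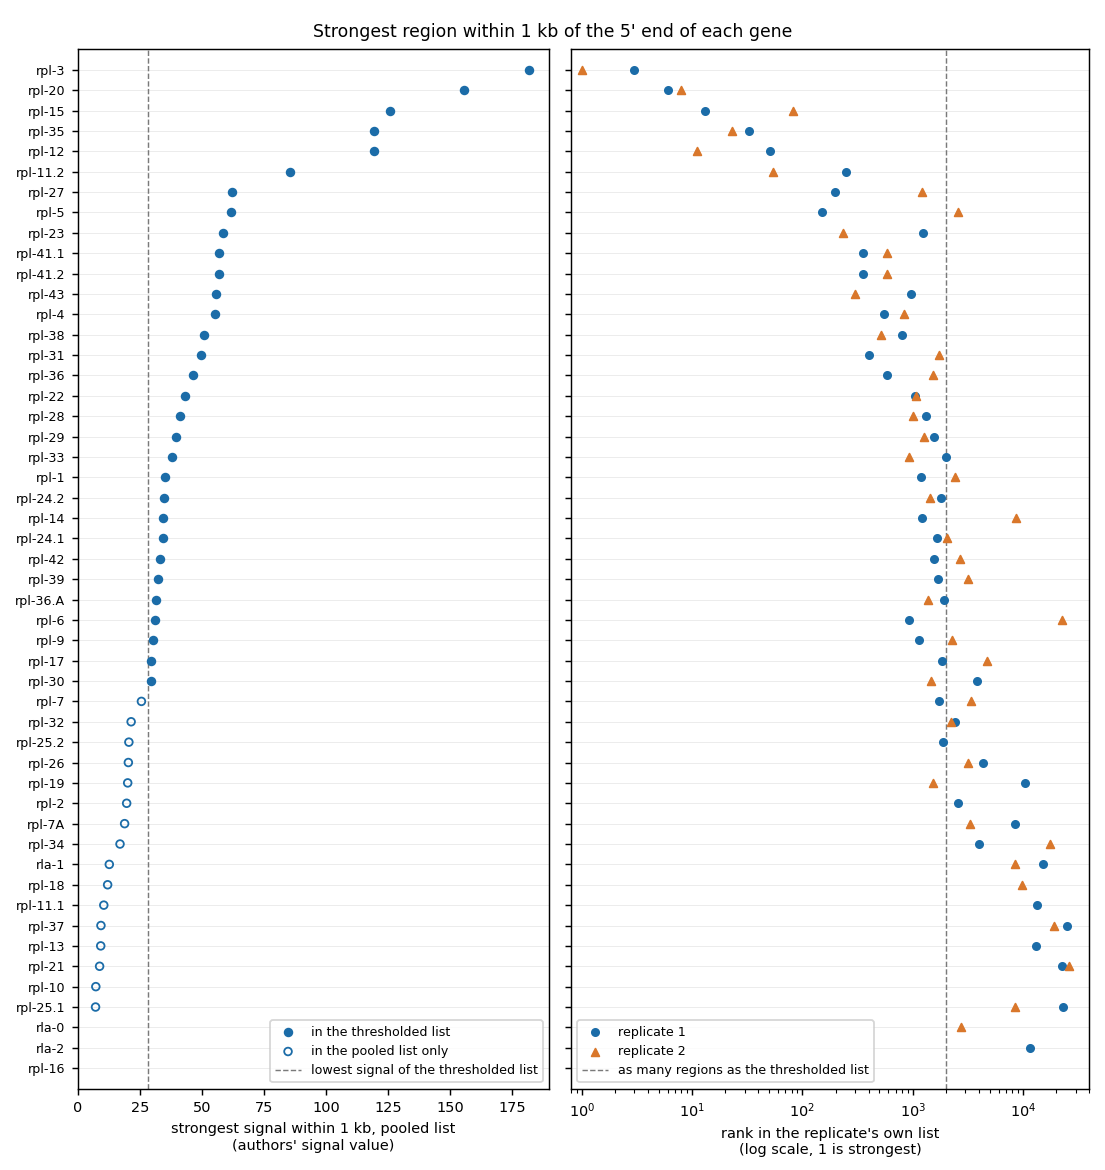
The left panel gives the strongest signal of the pooled list within 1 kb of each gene's 5' end, filled where the region is in the thresholded list, with the lowest thresholded signal (28.2) as a dashed line. The right panel gives the rank of the strongest region in each replicate's own list on a log scale, with rank 2005 as a dashed line. Signal falls from 182 at rpl-3 to 29.4 at rpl-30 among the filled points, and the replicates lie furthest apart at rpl-6.

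The members were then grouped by place in the subunit, a grouping made after the values were seen. The share of all protein-coding genes with a thresholded summit, 5.48%, is the background of each count, and groups this small allow no reading of differences between them. Near the peptidyl transferase centre, 1 of 3 genes had a thresholded summit. That gene was rpl-3, which encodes uL3, a protein with an extension reaching towards the catalytic centre. Its peak (chrIII:3867486-3867658) had a signal of 182, the highest of the whole list, and its region ranked 3 in replicate 1 and 1 in replicate 2. The others had weak pooled regions only. For rpl-2 (uL2) the pooled signal was 19.6, with a region of rank 2564 in replicate 1 and none in replicate 2. For rpl-10 (uL16, a late-joining protein) it was 7.20, with no region in either replicate's own list.

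Along the tunnel of the growing chain and at its exit, 5 of 9 genes had a thresholded summit. The strongest was at rpl-35 (uL29, at the tunnel exit), with a signal of 119.53 at chrIII:7854498-7854861 and ranks of 33 and 23 in replicates 1 and 2. At rpl-4 (uL4, which lines the tunnel) the signal was 55.3, with ranks of 545 and 839 in replicates 1 and 2. At rpl-31 (eL31, at the exit) it was 49.4, with ranks of 398 and 1729. The replicates placed the last of these further apart than the first 2 genes. At rpl-39 (eL39, a small protein inside the tunnel) the signal was 32.1, and at rpl-17 (uL22, which lines the tunnel) it was 29.5. Without a thresholded summit were rpl-25.2 (pooled signal 20.5), rpl-26 (20.3), rpl-19 (20.1) and rpl-25.1 (7.09), which encode uL23, uL24, eL19 and a second copy of uL23.

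Of the 3 genes whose products bind 5S ribosomal RNA, 2 had a thresholded summit. The 2 copies of the uL5 gene differed in signal. At rpl-11.2 the signal was 85.6 (chrX:2242776-2243139), with signals of 42.03 and 43.5 and ranks of 251 and 54 in replicates 1 and 2. At rpl-11.1 it was 10.4 in the pooled list, with a region of signal 7.17 in replicate 1 and none in replicate 2. At rpl-5 (uL18, the partner of uL5 on 5S RNA) the signal was 61.8 (chrII:8569335-8569698), with signals of 47.98 and 11.197 in replicates 1 and 2, and its region ranked 152 in replicate 1 but 2588 in replicate 2.

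Of the 4 genes of the acidic stalk and its base, 1 had a thresholded summit. It was rpl-12 (uL11, at the base of the stalk), with a signal of 119.52 at chrIV:13240643-13240753, signals of 60.2 and 60.97 and ranks of 51 and 11 in replicates 1 and 2. The stalk genes themselves had no thresholded summit. At rla-1 (P1) the pooled signal was 12.6. No pooled region lay within 1 kb of rla-0 (uL10, which anchors the stalk) or rla-2 (P2). In the replicates' own lists, rla-0 had a region of rank 2737 in replicate 2 and none in replicate 1, and rla-2 one of rank 11468 in replicate 1 and none in replicate 2.

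The other 31 genes included 22 with a thresholded summit. Next after rpl-3 came rpl-20 (eL20), with a signal of 155.7 at chrIV:4749989-4750132, signals of 93.6 and 63.8 and ranks of 6 and 8 in replicates 1 and 2. At rpl-15 (eL15) the signal was 125.7 at chrIV:654874-654976, with signals of 84.3 and 40.1 and ranks of 13 and 83. These 2 genes and rpl-3, rpl-35 and rpl-12 gave 5 of the 20 strongest peaks of the list, and with rpl-11.2 they gave 6 of the 100 strongest. The 20 and the 100 strongest are 0.998% and 4.99% of all 2005 peaks, against 5 and 6 of the 30 distinct summits of these genes. No test was made of these counts. Signals then dropped to less than that of rpl-11.2. At rpl-27 (eL27) the signal was 62.1 (chrI:1835419-1835782), with signals of 44.6 and 16.6 in replicates 1 and 2. At rpl-23 (uL14) it was 58.5 (chrIII:5706250-5706613), with 23.4 and 30.0. At rpl-41.2 and rpl-41.1 (L41, a very short protein) it was 57.04 (chrI:4789827-4790190), with 37.9 and 22.7 and ranks of 353 and 590. By rank in each replicate's own list, replicate 1 stood higher at rpl-27 (198, against 1207 in replicate 2), rpl-41.2 and rpl-41.1. Replicate 2 stood higher at rpl-23 (232, against 1230 in replicate 1). Further signals were 55.6 at rpl-43 (eL43), 50.7 at rpl-38 (eL38), 46.2 at rpl-36 (eL36), 43.2 at rpl-22 (eL22) and 41.3 at rpl-28 (eL28). Over the 30 distinct summits the median was 44.7, against 41.8 over all 2005 peaks, and 16 of the 30 (53.3%) were among the 1002 strongest. Apart from the few strongest, these peaks thus had signals near those of the list as a whole.

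The weaker thresholded peaks were at 11 further genes, among them rpl-24.2 and rpl-42, whose RefSeq products are no proteins of the subunit. Signals were 39.6 at rpl-29 (L29), 38.1 at rpl-33 (eL33), 34.95 at rpl-1 (uL1, of the stalk beside the E site), 34.7 at rpl-24.2, 34.4 at rpl-14 (eL14) and 34.2 at rpl-24.1 (eL24, which contacts the small subunit). They were 33.03 at rpl-42, 31.6 at rpl-36.A (eL42), 31.04 at rpl-6 (eL6), 30.4 at rpl-9 (uL6) and 29.4 at rpl-30 (eL30). The genes rpl-24.1 and rpl-24.2 share a number and had separate peaks of like height.

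On either side of the threshold, signals were close. The thresholded member with the lowest signal was rpl-30, at 29.4, and the strongest pooled region of a gene without a thresholded summit was at rpl-7 (uL30), at 25.6, with ranks of 1741 and 3376 in replicates 1 and 2. It was followed by rpl-32 (21.4), rpl-25.2, rpl-26, rpl-19, rpl-2, rpl-7A (eL8, 18.8) and rpl-34 (eL34, 16.95). Pooled signals were 11.96 at rpl-18 (eL18), 9.26 at rpl-37 (eL37), 9.18 at rpl-13 (eL13) and 8.72 at rpl-21 (eL21). At rpl-16 (uL13) no region of any list lay within 1 kb, and a thresholded summit of signal 38.2 lay 1786 bp upstream. Of the 19 genes without a thresholded summit, 16 had a pooled region, with a median signal of 14.8, against 49.5% of all protein-coding genes and a median of 10.8 over those. That background includes the 1095 genes with a thresholded summit, whereas the 19 were taken for having none, so the 2 sets are unlike.

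Of the 31 genes with a thresholded summit, 6 had ranks over 5 times apart between the replicates. The like count over all 1095 genes with a thresholded summit is not given here, so it is not read as particular to these genes. At rpl-6 the region had rank 923 and signal 26.9 in replicate 1, and rank 22718 and signal 4.27 in replicate 2. At rpl-14 the ranks were 1206 and 8689, at rpl-5 152 and 2588, at rpl-15 13 and 83, and at rpl-27 198 and 1207 in replicates 1 and 2. At rpl-23 the order was the other way, with rank 1230 in replicate 1 and 232 in replicate 2. Of all 31, 18 ranked higher in replicate 1 and 13 in replicate 2, with median ranks of 974 and 1207.

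The summits lay in a narrow zone upstream of the genes. Their median position was 300 bp upstream of the 5' end, with quartiles at 365 and 255.5 bp upstream. For the 1064 other protein-coding genes with a thresholded summit, the nearest one had a median 238 bp upstream, with quartiles at 441 and 100 bp upstream. From 500 to 200 bp upstream lay the summits of 25 of the 31 genes (80.6%), against 36.3% of the 1064 other genes. These bounds were set after the positions were seen. The small subunit genes with a summit had a median of 284 bp upstream (n = 19), close to that of the large subunit genes. Because an annotated 5' end can be a splice site, these distances are not distances from the start of transcription.

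Within the zone, summits lay nearest to the 5' end at rpl-1 (233 bp upstream), rpl-29 (237 bp), rpl-9 (243 bp) and rpl-24.1 (248 bp). From 263 to 285 bp upstream lay those of rpl-31 (263 bp), rpl-3 (273 bp), rpl-22 (274 bp), rpl-4 (282 bp), rpl-41.2 (283 bp) and rpl-20 (285 bp). They were followed by rpl-14 (296 bp), rpl-28 (300 bp), rpl-23 (305 bp), rpl-39 (313 bp), rpl-36.A (316 bp), rpl-6 (339 bp) and rpl-11.2 (340 bp). Farther up lay rpl-38 (353 bp), rpl-15 (357 bp), rpl-17 and rpl-30 (373 bp each), rpl-33 (381 bp), rpl-36 (406 bp), rpl-5 (410 bp) and rpl-35 (454 bp). The strongest peak, at rpl-3, and a weaker one, at rpl-22, lay 1 bp apart in this position.

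A few genes stood outside that zone. At rpl-12 the summit lay 26 bp upstream and at rpl-24.2 153 bp upstream, where it fell in an intron of another gene, whereas the other 29 distinct summits lay between genes. At rpl-43 and rpl-42 it lay 763 and 964 bp upstream. The summit that counted for rpl-27 lay 718 bp downstream of its 5' end, 60 bp from the start of egl-30 (a G protein alpha subunit) and 179 bp from that of C53H9.4. The summit that counted for rpl-41.1 lay 819 bp downstream, and it was 283 bp upstream of rpl-41.2. The member nearest inside the limit of 1 kb was rpl-42, at 964 bp, and the nearest beyond it was rpl-16, at 1786 bp.

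**Figure D2:**
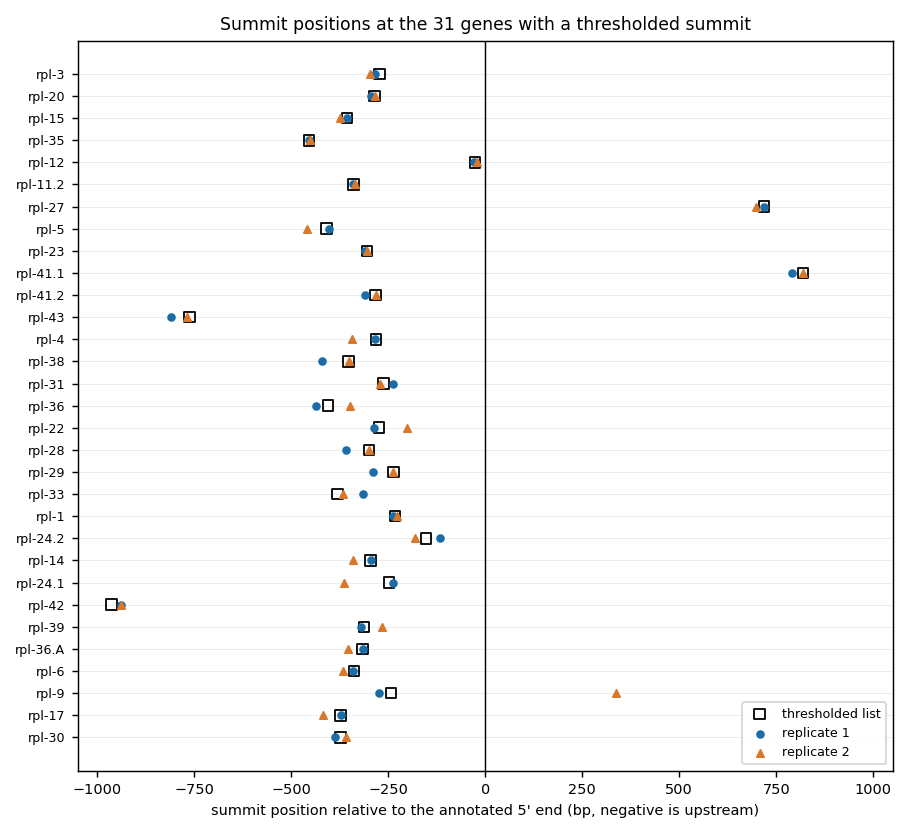
Each row is 1 of the 31 genes, in order of signal, and the horizontal axis is the summit's position relative to the annotated 5' end in bp, negative upstream, for the thresholded list (squares), replicate 1 (circles) and replicate 2 (triangles). Most squares sit between 200 and 500 bp upstream with both replicates beside them, and rpl-9 is the gene whose replicates lie 612 bp apart.

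The replicates placed most summits at nearly the same position. The strongest regions of replicates 1 and 2 had summits a median of 37 bp apart over the 31 genes, and 20 were within 50 bp. The like values over all 1095 genes with a thresholded summit are not given here, so this closeness is not read as particular to these genes. At rpl-35 they were 1 bp apart. At 2 genes they were over 100 bp apart, namely rpl-24.1 (127 bp) and rpl-9 (612 bp), where the strongest region of replicate 2 lay 337 bp downstream of the 5' end.

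**Figure D3:**
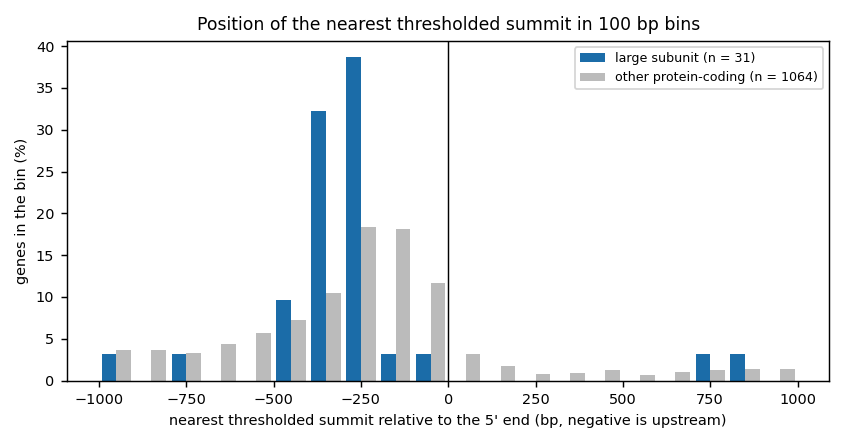
Bars give the percentage of genes whose nearest thresholded summit falls in each 100 bp bin of position relative to the 5' end (bp, negative upstream), for the 31 large subunit genes and the 1064 other protein-coding genes with such a summit. The large subunit genes hold 38.7% in the bin from 300 to 200 bp upstream and 32.3% in the bin from 400 to 300 bp, against 18.3% and 10.4% of the others.

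Most of these summits lay near another gene's start too. Of the 30 distinct summits, 22 (73.3%) were within 1 kb of the start of a further protein-coding gene. Of the 850 thresholded summits with any start within 1 kb, 269 (31.6%) had more than 1. Pairs transcribed away from each other were counted for these genes only, so that count has no background beside it. At 18 genes the summit lay between the member and a gene transcribed away from it on the other strand. In 3 of these pairs the partner encodes a small subunit protein, with rps-10 beside rpl-24.1, rps-14 beside rpl-36 and rps-30 beside rpl-39. Other partners were mrpl-49, of the mitochondrial ribosome, beside rpl-28, lpd-7, of ribosome biogenesis, beside rpl-9, and pab-1, the poly(A)-binding protein, beside rpl-30, where the summit lay 5 bp from the start of pab-1.

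The remaining partners were Y17G9B.5 at rpl-20, K11H12.8 at rpl-15, lin-54 (of the DREAM complex) at rpl-12, col-38 (a collagen) at rpl-5, Y48B6A.1 (a homolog of the ribosome biogenesis protein BOP1, per RefSeq) at rpl-43, B0041.8 at rpl-4, sac-2 at rpl-31, ify-1 at rpl-22, farl-11 at rpl-33, Y71F9AL.9 at rpl-1, nuo-1 (of respiratory complex I) at rpl-36.A and aps-3 (of an adaptor complex) at rpl-17. On the same strand as the member, swp-1, ndab-2 and thoc-7 had starts 907, 907 and 746 bp from the summits of rpl-23, rpl-36 and rpl-29, and C26F1.3 had one 908 bp from that of rpl-39 on the other strand. The summit was closer to the partner at rpl-20 (177 bp, against 285 bp to rpl-20) and closer to the member at rpl-12 (26 bp, against 367 bp to lin-54). For such pairs the peak cannot be given to 1 gene alone.

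The 6-mer ACCGTA was frequent at the summits of the large subunit genes. All 2080 6-mers, with both strands merged, were ranked by the difference between their share among the 30 windows of these genes and among 1959 windows at thresholded summits near no cytosolic ribosomal protein gene. ACCGTA came first, at 16 of 30 windows (53.3%) and 57 of 1959 (2.91%). Since the ranking chose it on these windows, the difference is a description with no test. On the summits of each replicate's own strongest regions in place of the thresholded ones, it was in 35.5% of windows in replicate 1 and 50% in replicate 2. In windows 500 bp towards higher coordinates it was in 1 of 30. That shift runs downstream for genes on the plus strand and upstream for those on the minus strand. The 6-mer was chosen on the summit windows, so a lower share elsewhere follows in part from the choice. In windows of the same width centred 300 bp upstream of all 19973 protein-coding genes it was in 3.03%.

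Some windows that did not enter the ranking also held it. Of 16 further summits at small subunit genes, 4 (25%) had ACCGTA. In the 500 bp upstream of the 5' end it was present at 17 of the 31 large subunit genes with a thresholded summit (54.8%) and at 8 of the 19 without (42.1%), against 13.9% of all protein-coding genes and 19.7% of the 1095 genes with a thresholded summit. For the 31 genes, these stretches include ranked windows. Among small subunit genes it was present upstream of 6 of 19 with a thresholded summit (31.6%) and 5 of 12 without (41.7%). The stretches of rps-10, rps-14 and rps-30 overlap ranked windows, since each shares a summit with a large subunit gene. At rps-10, whose start lay 362 bp from the summit of rpl-24.1, that window held ACCGTA 9 bp from the summit. These counts are too small to read a difference between the 2 subunits or between genes with and without a summit. It was present at 15.7% of the genes of the mitochondrial ribosome and 14.8% of those of ribosome biogenesis. The genes without a peak that carried it were rpl-7, rpl-25.2, rpl-26, rpl-34, rpl-18, rpl-11.1, rpl-21 and rpl-10. Of the 31 genes with a peak, 20 had ACCGTA within 500 bp of the summit, 16 of them inside the windows that chose it, so short distances follow from that choice. As a description, distances were taken from the summit to a base near the middle of the 6-mer, not to its edge. The nearest copy was 2 bp away at rpl-29, 5 bp at rpl-11.2, 11 bp at rpl-3 and rpl-15 and 16 bp at rpl-20. The copies at the last 4 genes are in the printed windows.

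Other 6-mers in the ranking overlapped ACCGTA or formed groups of their own. CCGTAG, at place 3, overlaps ACCGTA by 5 bases and was in 36.7% of the windows of these genes and 1.84% of the other thresholded windows. GAGACC, at place 2, was in 13 of 30 windows (43.3%) and 5.16% of the others, and in 3 of the 16 small subunit windows. AGACCC and CGAGAC, which overlap GAGACC, were at places 4 and 5. ACACTC, at place 7, was in 12 of 30 (40.0%) and 8.73% of the others. Either ACCGTA or GAGACC was in 21 of 30 windows (70.0%), in 7 of 16 small subunit windows and in 7.20% of the others. The windows of the large subunit genes held 49.5% ± 6.92 G and C (SD, 30 windows), against 43.5% ± 8.69 in all 2005 thresholded windows, and the part of this composition in the 6-mer shares was not tested.

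The forkhead core was not found within 50 bp of these summits. On either strand the form GTAAACA, the form GTAAATA, the form ATAAACA and the form ATAAATA were in 0 of the 30 windows, which allows a share of up to 10%, against 111 of 1959 (5.67%) at the other thresholded summits and 11.7% of windows 300 bp upstream of all genes. The share at the other summits lies below that limit, so a difference from them was not detectable with 30 windows. The share upstream of all genes lies above it, but those windows were not at summits. Base composition was not matched between the sets either, so a depletion of the core was not tested. Within 100 bp either side, the core was in 2 of 30 windows (6.67%), both with ATAAACA, against 12.4% of the other thresholded summits. Of 6 7-mers chosen from earlier results of these data, any was in 7 of 30 windows (23.3%), against 41.4% of the other thresholded windows and 10.2% of the windows upstream of all genes. In the windows of the large subunit genes GAAGAGA was in 2, and so was GAGACGC. The 7-mer CTCTCTC was in 1, AAGAAGA in 1, CTTCTTC in 1 and AGAGAGA in 0. Of these, CTCTCTC overlaps AGAGAGA on the opposite strand, and AAGAAGA so overlaps CTTCTTC. The 6-mer TTTCAG, part of the splice acceptor consensus of the worm, was in 3 of 30 windows (10%), against 8.63% of the other thresholded windows and 18.5% of the windows upstream of all genes. These matches say which letters the windows hold and nothing about binding.

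**Figure D4:**
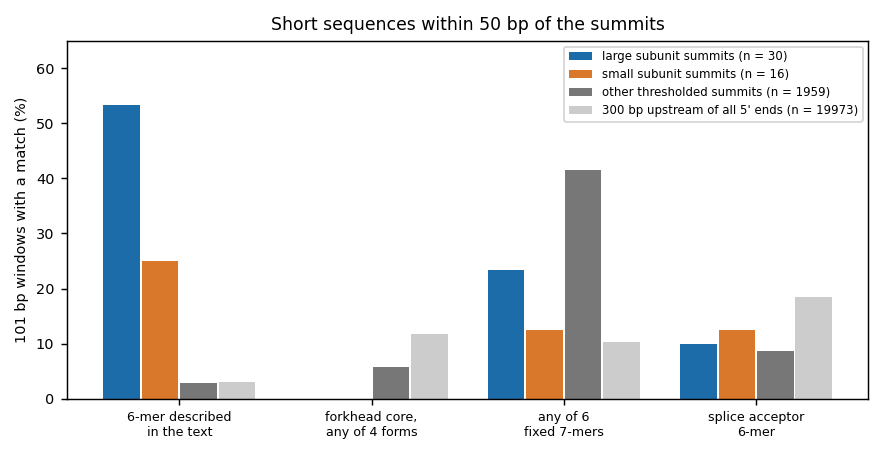
Bars give the percentage of windows from 50 bp before to 50 bp after the summit, or of that width, with a match on either strand, for 30 summits of large subunit genes, 16 summits of small subunit genes, 1959 other thresholded summits and 19973 windows centred 300 bp upstream of protein-coding genes. The 6-mer ACCGTA stands at 53.3% and 25% in the ribosomal protein windows, against 2.91% and 3.03% in the other 2 sets, and the forkhead core is at 0 in both ribosomal protein sets.

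Genes of the small subunit showed nearly the same share of peaks, and other genes of the ribosome a lower one. A thresholded summit lay within 1 kb of 31 of 50 large subunit genes (62.0%) and 19 of 31 small subunit genes (61.3%). It was 10 of 70 genes of the mitochondrial ribosome (14.3%) and 3 of 27 genes of ribosome biogenesis and RNA polymerase I, namely fib-1, nol-56 and lpd-7. Of all protein-coding genes, 5.48% had one, and 3 biogenesis genes are too few to be read against that share. The biogenesis list left out Y48B6A.1, whose start lay 158 bp from the summit of rpl-43. The summit at lpd-7 lay closer to rpl-9 (243 bp, against 276 bp to lpd-7). Within the peaks, 5 large subunit genes and 0 small subunit genes had 1 of the 20 strongest. Of the 1064 genes with a thresholded summit outside the large subunit, 11 had one. The highest signals were 182 at large and 88.4 at small subunit genes, while the medians were 46.2 over the 31 genes and 46.3 over the 19. No test was made of these differences. The shared promoters named above count in more than 1 of these lists.

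**Figure D5:**
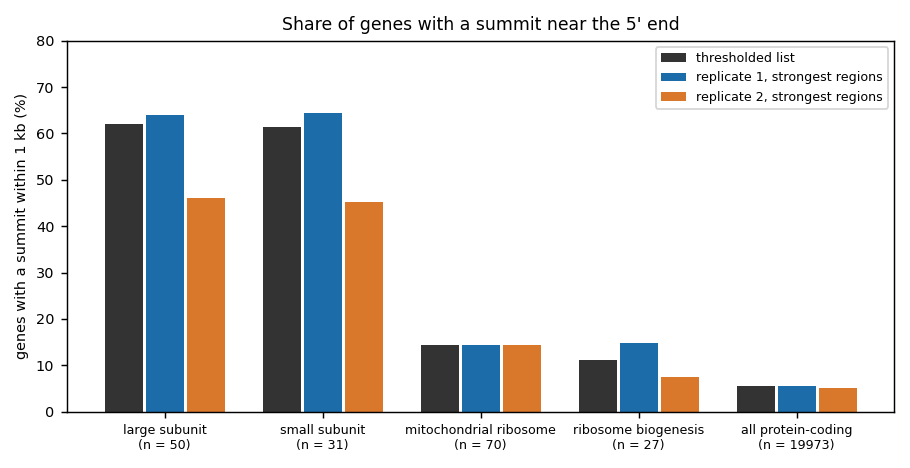
Bars give the percentage of genes with a summit within 1 kb of the 5' end for 5 gene lists, in the thresholded list and in the 2005 strongest regions of replicates 1 and 2. The large and small subunit genes reach 62.0% and 61.3% in the thresholded list, and both are lower in replicate 2 (46.0% and 45.2%) than in replicate 1 (64.0% and 64.5%).

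Every nuclear chromosome had members with peaks. Thresholded summits were counted at 11 of 17 members on chromosome I, against 8.41% of all protein-coding genes there, and at 6 of 9 on II, against 4.44%. They were counted at 6 of 9 on III, against 8.26%, and at 4 of 8 on IV, against 4.82%. On V it was 3 of 5, against 3.604%, and on X 1 of 2, against 5.27%. Region width carried little information, since 1936 of the 2005 peaks had the same width. Of the 18 narrower peaks, 4 were at rpl-3, rpl-20, rpl-15 and rpl-12, which are among the 20 strongest. This count was not tested against the 30 of 2005 peaks that the large subunit genes had in all.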

How the data were processed

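The peak lists came from ChIP-seq of 2 biological replicates of 1 group. Per the deposited file descriptions, the authors called candidate regions in each replicate and in the pooled data against a control alignment, and combined the 3 lists into a thresholded one (irreproducible discovery rate, IDR, a measure of how well ranks repeat). The authors deposited a signal value for each region. Its scaling, the aligner and the caller, with any versions, were not stated by the labels or file headers. The total reads per library are unknown, so no interval was set on a signal. The ce10 lists were not used here.

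Summits were taken as start plus peak offset, counted from 1 on ce11, and set against the 5' ends of gene records in the Ensembl annotation of WBcel235, using Python 3.11.15 and pandas 2.3.3. A gene counted when any summit lay within 1 kb. Motifs were searched on both strands in the WBcel235 sequence within 50 bp of summits. The members and lists were chosen with earlier results of these data known, and no test was made. The 27 of 30 listed biogenesis symbols that matched were used. Named were all members with a thresholded summit, the 8 strongest others, those with no pooled region, numbered copies, rla genes and genes sharing a summit. Other members, the partners' functions and the tunnel, centre, 5S and stalk groups were chosen after the values were seen, and so was ACCGTA. Sequences are printed for the 11 strongest summits off chromosome I. The scripts were tested on simulated summits. The alternatives were other windows, assignment rules, transcript starts, peak subsets and each replicate's own list.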

Additional observations from a re-analysis of the deposited data

How the results depend on the processing

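Of 61 alternative values of the main results, 51 stayed within 1.5 times the count, or within the spread or interval, of the value reported. With each summit given to the nearest gene alone, 18 large and 10 small subunit genes had one. The 1002 strongest peaks gave 17 large subunit genes, 543 genes in all, 4 of the mitochondrial ribosome and 1 of biogenesis, and a 2 kb window gave 5 of biogenesis. With 1002 in place of 2005 regions per replicate, 11 members had one in both. With 25 bp either side, 6.67% of windows held 1 of the 6 7-mers. Leaving out 1 replicate in turn put the median position at -308 to -300 bp, the count of members at 23 to 32, and ACCGTA at 35.5% to 50% of windows, the lower value on replicate 1's own summits. Without rpl-42, 30 members had a thresholded summit. This and the settings for ACCGTA were chosen after seeing the data. No paired analysis was possible because all samples were of 1 group and no test was made. The unknown depth limits how far a missing region can be read.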
